A study of Mus musculus with 9 samples.

Results

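The genes described here were autosomal genes that natural killer (NK) cells expressed after 7 days in interleukin-15 (IL-15) and that were near or below the counting floor in NK cells taken straight from the spleen. They were chosen on measured values. A member had at least 10 CPM (the gene's count divided by the library's total, times 1000000) in all 3 wild-type (WT) cultures and under 1 CPM in each of 3 sorted libraries. Of 27179 genes, 35 met these cut-offs. Granzyme, serpin, cytokine, chemokine and receptor families were left out by rule, which removed 4 genes (Gzmd, Gzme, Gzmg and Tnfrsf11b), and 1 further gene had no chromosome assigned. The remaining 30 genes are called culture-only genes below, as a name for the rule.

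RNA was sequenced from splenic NK cells of C57BL/6 mice in 9 libraries. WT cultures and Id2-null cultures were each represented by 3 libraries, all from cells kept in IL-15 for 7 days. The Immature, M1 and M2 libraries, 1 each, came from WT cells sorted from the spleen without culture. The sources used here do not give how Id2 was deleted, the markers used in the sort, or the age and sex of the mice. Nor do they tell if replicates were separate animals, so the spread behind each p-value may be technical. The labels assign culture by sample number, and the samples were numbered in listed order, which limits every statement on culture.

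NK cells are cytotoxic lymphocytes of innate immunity. They depend on IL-15, which signals through JAK kinases and STAT5 and, at high dose in culture, drives resting NK cells into growth and division. ID2 is a helix-loop-helix protein that lacks a DNA-binding region and holds E proteins away from their target sites. The genes below fall into several kinds: metal-binding proteins, cytoskeletal and adhesion proteins, regulators of transcription and the cell cycle, secreted factors and receptors, enzymes and transporters, histones, and genes with near-identical copies elsewhere in the genome.

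The Mt1, Mt2 and Asns promoters are shown because the signals that act on them are well described. Metallothionein genes respond to the zinc-sensing factor MTF1 through metal response elements, and Asns, which encodes asparagine synthetase, responds to amino acid shortage through an element bound by ATF4. The sequences are from RefSeq on GRCm38.p6, run 5′ to 3′ on the gene's strand and span 250 bases before to 50 bases after the annotated start. Capitals in Mt1 (chr8:94178839-94179138, plus strand) and Mt2 (chr8:94172368-94172667, plus strand) mark TGCACNC and TGCGCNC, searched on both strands. The Mt1 window is set on a start that RefSeq lists inside the gene's extent, not on its outermost base. Capitals in Asns (chr6:7693160-7693459, minus strand) mark TGATGNAA, also searched on both strands.
Mt1: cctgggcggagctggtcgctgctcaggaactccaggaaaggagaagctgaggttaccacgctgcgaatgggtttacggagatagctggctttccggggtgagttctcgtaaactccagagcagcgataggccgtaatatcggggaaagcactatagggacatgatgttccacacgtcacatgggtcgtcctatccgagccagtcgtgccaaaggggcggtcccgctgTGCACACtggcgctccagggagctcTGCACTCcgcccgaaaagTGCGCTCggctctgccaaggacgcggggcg
Mt2: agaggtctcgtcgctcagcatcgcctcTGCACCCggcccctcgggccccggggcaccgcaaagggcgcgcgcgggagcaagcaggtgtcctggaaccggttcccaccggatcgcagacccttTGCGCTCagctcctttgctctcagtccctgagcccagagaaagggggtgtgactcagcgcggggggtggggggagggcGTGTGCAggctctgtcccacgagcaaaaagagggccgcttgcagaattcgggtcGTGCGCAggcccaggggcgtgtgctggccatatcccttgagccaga
Asns: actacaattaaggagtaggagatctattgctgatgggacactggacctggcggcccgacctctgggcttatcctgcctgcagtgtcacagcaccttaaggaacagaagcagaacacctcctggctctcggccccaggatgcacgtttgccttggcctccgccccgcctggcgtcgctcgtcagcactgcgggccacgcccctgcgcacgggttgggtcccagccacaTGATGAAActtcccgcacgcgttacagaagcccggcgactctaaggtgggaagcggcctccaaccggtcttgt
The Mt1 promoter held 3 such matches and the Mt2 promoter 4. Of 32851 RefSeq promoters of the same length, 1.97% held at least 3 and 0.517% at least 4. A match to TGATGNAA occurred in 3.97% of all promoters, and the one in Asns lay 23 to 16 bases before the start. These matches describe letters in a window and do not show binding.

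Depth was similar across libraries, at 4128414 to 4831831 counts with 13888 to 14432 genes detected. A count of 0 allows a level of up to 3 counts, or 0.621 to 0.727 CPM, which covers counting error only. Id2 had 420, 407 and 403 CPM in the WT cultures against 12.5, 24.4 and 9.82 CPM in the Id2-null cultures (log2 fold change -4.70, SE 0.35, adjusted p = 0.00116). The X-linked RNA Xist and the Y-linked gene Ddx3y separated the genotypes: Ddx3y had 355 to 377 counts in WT and 1 to 3 in Id2-null, so the sex of the cells and the genotype cannot be told apart. The sorted libraries held both RNAs (Xist 361 to 499 and Ddx3y 148 to 192 counts) and the WT cultures almost no Xist (1 to 6 counts), so culture and the sex of the cells cannot be told apart either. All 8 NK markers examined were above 1 CPM in every library. Of the 10 lists of markers of other cells, neutrophil, dendritic, B cell and erythroid and platelet markers summed higher in each sorted library than in any culture. The macrophage genes Lyz2, Adgre1, Fcgr1, C1qa and C1qb had 0 counts in all 6 cultures. Of the 10 macrophage and monocyte markers only Cd68 and Ccr2 passed 1 CPM there. The list summed to 1061 to 1490 CPM in WT, 992 to 1635 in Id2-null and 974 to 1161 in sorted cells. Ccr2 made up most of the sum in the cultures, at 1042 to 1469 CPM in WT and 981 to 1630 in Id2-null. In sorted cells Ccr2 was at 407 to 1014 CPM, Lyz2 at 54.0 to 205, Csf1r at 34.1 to 140, Adgre1 at 12.3 to 70.4 and C1qa at 14.6 to 78.2. The 6 neutrophil markers summed to 0 CPM in WT, at most 0.216 CPM in Id2-null and 79.7 to 440 CPM in sorted cells. The 7 dendritic markers summed to 6.77 to 10.1, 3.02 to 8.48 and 31.6 to 134 CPM in the same order. The 5 B cell markers summed to 0.621 to 1.07, 5.62 to 13.6 and 37.5 to 194 CPM. Erythroid and platelet markers stayed at or under 2.01 CPM in each culture and summed to 12.8 to 33.6 CPM in the sorted cells. T cell markers, which include CD3 chains that NK cells can transcribe, summed to 61.5 to 223, 200 to 338 and 83.4 to 527 CPM, with Cd4 at 0 in all cultures. Mast cell and basophil markers summed to 276 to 629, 289 to 695 and 278 to 366 CPM. Kit made up most of that sum in the cultures, while Fcer1a was at 0 in all cultures and at 6.06 to 31.3 CPM in sorted cells. ILC2 and ILC3 markers summed to 66.8 to 80.5, 86.9 to 95.04 and 60.3 to 71.3 CPM. ILC1 markers summed to 329 to 504, 167 to 257 and 56.7 to 176 CPM, and stromal markers to 164 to 194, 110 to 137 and 146 to 150 CPM. Genes called on these lists were Jchain, Itgae and Epcam, which rose in Id2-null, and Itga1, Cxcr6, Cd200r1 and Pecam1, which fell. The part of other cells in the culture-only pattern was not tested.

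The 30 genes lay on 15 chromosomes, and 28 of them code for proteins. Gm17767 is a long noncoding RNA and Gm2274 a transcribed pseudogene. Their mean level in the WT cultures ran from 11.9 CPM for Dyrk3 to 139 CPM for Mt1, with a median of 32.7 CPM against 55.2 CPM for the 8269 autosomal genes tested that met the same WT floor. Per kilobase of gene length, the highest mean WT levels were those of Mt1 (256 RPKM), H2ac23 (194 RPKM), H2ac24 (187 RPKM) and Mt2 (88.1 RPKM), and the lowest those of Arfgef3 (1.57 RPKM) and Alpk2 (2.22 RPKM). In the sorted libraries 7 members had no count at all, and no member had more than 4 counts in a library or 10 over the 3. The 30 genes together made up 1087, 1294 and 1231 CPM in WT cultures 1 to 3 and 7.27, 6.05 and 6.22 CPM in Immature, M1 and M2. These values chose the genes and carry no test.

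**Figure D1:**
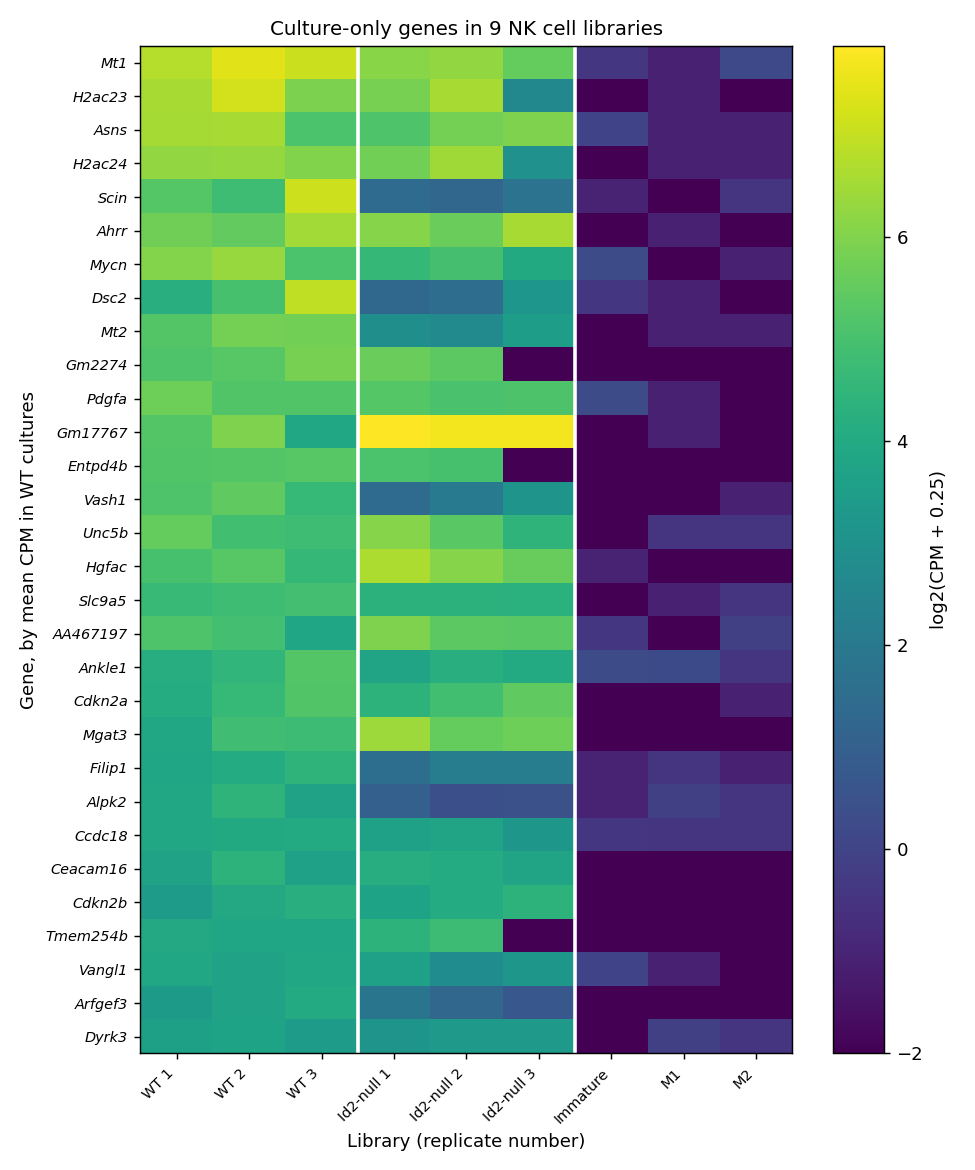
Expression of the 30 culture-only genes (rows, ordered by mean CPM in WT cultures) in 9 libraries (columns), as log2(CPM + 0.25). The sorted libraries are dark by the rule that chose the genes. Mean CPM differed by less than 2-fold between genotypes in 18 rows, rows such as Scin, Alpk2 and Arfgef3 are darker in all 3 Id2-null columns, and Gm2274, Entpd4b and Tmem254b are dark in Id2-null replicate 3 alone among the cultures.

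Values near the cut-offs show where the rule drew its line. Just inside the WT floor, the lowest WT culture was at 10.1 CPM for Arfgef3, 10.6 CPM for Dyrk3 and 10.7 CPM for Cdkn2b. Just outside it were Map3k12 at 9.88 CPM, 4930520O04Rik at 9.09 CPM and Fgd5 at 8.37 CPM. Just inside the sorted ceiling, Mycn, Ankle1 and Pdgfa each reached 0.969 CPM in 1 sorted library, and just outside it Tspoap1, Zbtb32, Pik3r6, Sh2d5 and Fads2 reached 1.11 CPM.

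Most culture-only genes were expressed in the Id2-null cultures as well, which the rule did not use. In all 3 of those libraries, 27 of the 30 genes were at 1 CPM or more, and no member was under 1 CPM in all 3. At the rule's own floor of 10 CPM, 15 genes passed in all 3 Id2-null libraries, 8 in 1 or 2 of them and 7 in none. Among the 8269 autosomal genes at the same WT floor, 96.1% passed 10 CPM in all 3 Id2-null libraries, against 15 of the 30 members. The 30 genes summed to 1136, 1082 and 814 CPM in Id2-null replicates 1 to 3, so that replicate 1 lay in the WT range, replicate 2 just below it and replicate 3 further below. In bulk RNA, fewer expressing cells and less RNA per cell cannot be told apart. The 15 genes at 10 CPM throughout were Mt1, Asns, Ahrr, Mycn, Pdgfa, Gm17767, Unc5b, Hgfac, Slc9a5, AA467197, Ankle1, Cdkn2a, Mgat3, Ceacam16 and Cdkn2b. The 7 under 10 CPM in every Id2-null library were Scin, Dsc2, Vash1, Filip1, Alpk2, Arfgef3 and Dyrk3.

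Between Id2-null and WT cultures, 6 of the 30 genes fell and none rose. The 6 were Scin, Alpk2, Vash1, Mt2, Arfgef3 and Filip1, by edgeR's quasi-likelihood test at an adjusted p under 0.05 over 11022 genes. All 30 members passed the low-count filter, which their WT level ensured. Of all genes tested, 1.52% were called lower and 1.91% higher. Of the autosomal genes at the same WT floor, 1.57% were called lower and 1.32% higher, against 6 of 30 members lower. At an unadjusted p under 0.05 there were 16 of the 30 members, 4 of them higher, and 1613 of the 11022 genes tested. DESeq2 called 9 members lower and 3 higher, with 580 calls over all genes. Limma voom called 5 members lower and 1 higher, with 323 calls over all genes. With the replicate number as a block, edgeR called 9 members lower, where 3.57% of genes at the floor were lower, and 2 higher, where 3.37% were higher. Every Id2-null library lay below every WT library for 14 members (10.9% of genes at the floor) and above every WT library for 4 (8.72%). The median log2 fold change was -0.53 over the members and 0.01 over the genes at the floor. Mean CPM was over 2-fold lower for 9 members, over 2-fold higher for 3 and within 2-fold for 18. The share of other genes past 2-fold was not counted. Since the rule sets a floor on the WT values alone, it favours lower values in Id2-null, and the members lay nearer that floor than the genes they are set beside.

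**Figure D2:**
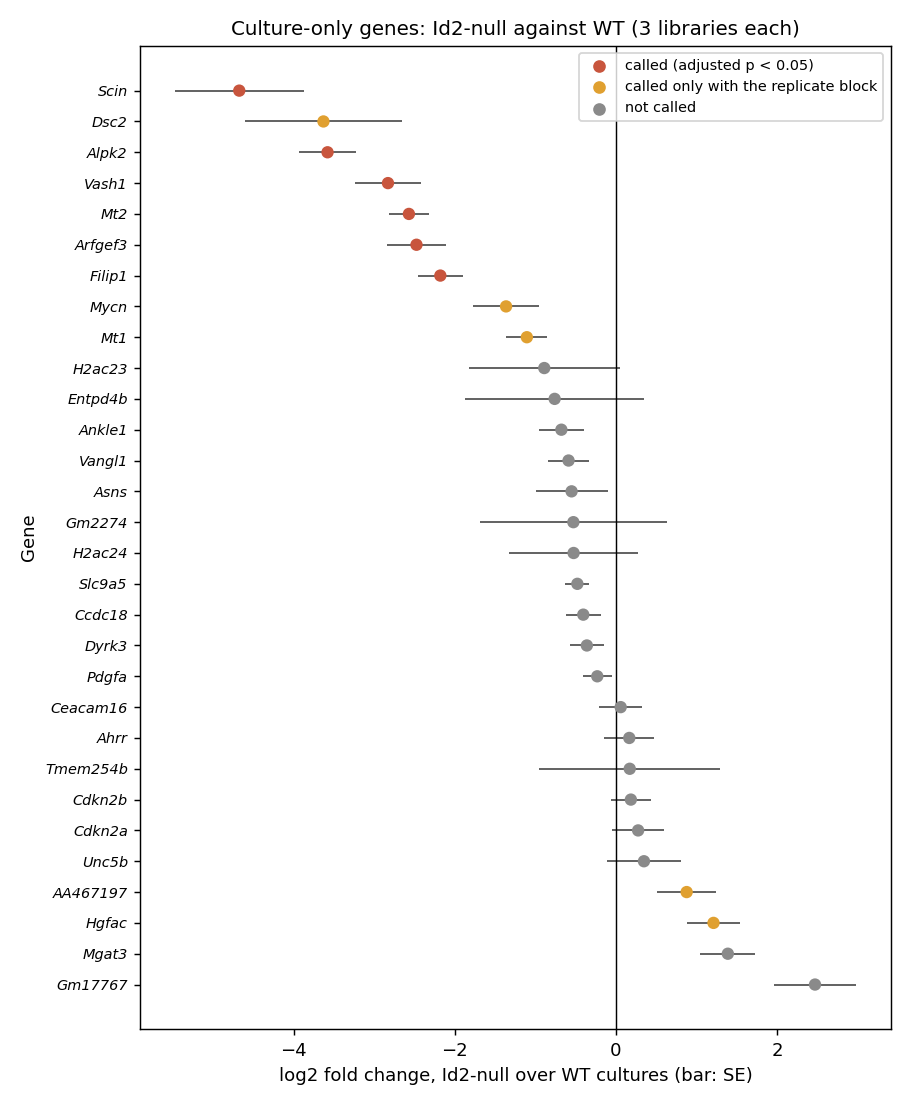
Log2 fold change of Id2-null over WT cultures for each culture-only gene (3 libraries per genotype), with its SE as a bar. Red points passed the adjusted threshold, orange points passed only with the replicate block, and grey points passed neither. Scin has the lowest value (-4.68) and Gm17767 the highest (2.47), and the 3 genes at 0 in Id2-null replicate 3 have wide bars.

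Mt1 and Mt2 encode metallothioneins, small cysteine-rich proteins that bind zinc and copper and buffer metal and oxidative stress. They lie 5.32 kb apart on chromosome 8, Mt1 at 94178883 to 94180327 and Mt2 at 94172618 to 94173567. Mt2 had 36.7, 55.8 and 54.4 CPM in WT replicates 1 to 3, 7.37, 6.27 and 11.2 CPM in Id2-null replicates 1 to 3, and 0, 0.224 and 0.222 CPM in Immature, M1 and M2. The genotypes did not overlap, and Mt2 fell from 49.0 ± 10.7 to 8.26 ± 2.56 CPM (SD, n = 3 each; log2 fold change -2.57, SE 0.25, adjusted p = 0.00127). In GENCODE, 45.8% of the 50-base windows of Mt2 transcripts also occur in another gene, an overlapping one, so its reads could be shared. Mt1 had 110, 173 and 134 CPM in WT, 68.8, 77.4 and 46.6 CPM in Id2-null and at most 0.889 CPM in sorted cells. Again no library of one genotype reached the other. The Mt1 difference did not pass the threshold (log2 fold change -1.10, SE 0.25, adjusted p = 0.0672), and with the replicate block it did (adjusted p = 0.0120). The other family members Mt3 and Mt4 had at most 2 counts in any library. Mtf1, which encodes the zinc-sensing activator, had 39.0 ± 0.317 CPM in WT, 42.1 ± 2.44 CPM in Id2-null and 37.5 to 48.2 CPM in sorted cells, so it was at a like level before and after culture. The neighbouring gene Nup93 was at 87.1 to 128 CPM in WT and 55.6 to 66.1 CPM in the sorted cells and was not a member.

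Scin encodes scinderin, a calcium-dependent protein that severs actin filaments. It had 38.2, 27.5 and 137 CPM in WT, 2.46, 2.16 and 3.12 CPM in Id2-null and 0.242, 0 and 0.444 CPM in Immature, M1 and M2. The lowest WT library was far above the highest Id2-null library, while WT replicate 3 stood well above the other WT libraries. Scin (chromosome 12, 40059769 to 40134228) fell by 4.68 on the log2 scale (SE 0.80, adjusted p = 0.0461). The call was lost on leaving out WT replicate 1 or any single Id2-null library (largest adjusted p = 0.217), without the low-count filter and in limma voom (adjusted p = 0.108), and the replicate block kept it (adjusted p = 0.00171). The related actin-severing gene Gsn had 48.4 ± 28.4 CPM in WT and 54.2 ± 37.7 CPM in Id2-null, and Vil1 had at most 1 count in a library.

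Vash1 encodes vasohibin-1, an enzyme that removes the terminal tyrosine of alpha-tubulin together with the small protein SVBP. It had 35.0, 43.6 and 24.4 CPM in WT, 2.46, 3.89 and 8.25 CPM in Id2-null and 0, 0 and 0.222 CPM in the sorted cells. The groups did not overlap, with Id2-null libraries between the sorted and WT levels. Vash1 (chromosome 12, 86678700 to 86695688) fell from 34.3 ± 9.59 to 4.87 ± 3.02 CPM (SD, n = 3 each; log2 fold change -2.83, SE 0.41, adjusted p = 0.0120), and the call was lost without Id2-null replicate 2 or WT replicate 1 (largest adjusted p = 0.0747). Svbp, in contrast to its partner, was expressed throughout, at 17.0 ± 2.17 CPM in WT, 18.4 ± 3.84 CPM in Id2-null and 35.4 to 38.7 CPM in sorted cells. Vash2, the second vasohibin, had at most 1 count in a library.

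Filip1 encodes a protein that binds filamin A and regulates its turnover. It had 13.5, 16.5 and 21.3 CPM in WT, 2.68, 4.32 and 4.24 CPM in Id2-null and 0.242, 0.448 and 0.222 CPM in sorted cells. All 3 Id2-null libraries were below the WT range and above the sorted one. Filip1 (chromosome 9, 79805018 to 80012851) fell by 2.18 on the log2 scale (SE 0.28, adjusted p = 0.00431), a call kept when any 1 library was left out (largest adjusted p = 0.0254).

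Alpk2 encodes an alpha-kinase, a member of a small family of atypical protein kinases. It had 14.8, 20.9 and 12.6 CPM in WT, 1.79, 1.08 and 1.12 CPM in Id2-null and 0.242, 0.672 and 0.444 CPM in sorted cells. Its Id2-null counts of 8, 5 and 5 were the lowest of the 6 called genes in each replicate, and came closest to the sorted counts of 1, 3 and 2. Alpk2 (chromosome 18, 65265529 to 65393888) fell by 3.58 on the log2 scale (SE 0.36, adjusted p = 0.00146) and was called with every library left out in turn (largest adjusted p = 0.0154). Of the 50-base windows of its GENCODE transcripts, 16.7% also occur in other genes. Malt1, the gene 37.1 kb away that encodes a paracaspase of antigen-receptor signalling, also fell, from 234 to 264 CPM in WT to 138 to 154 CPM in Id2-null (log2 fold change -0.78, adjusted p = 0.0111), but was at 123 to 174 CPM in the sorted cells.

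Arfgef3, also known as BIG3, belongs to the family of exchange factors for ARF proteins, which govern vesicle traffic. It had 10.1, 12.7 and 15.9 CPM in WT, 3.35, 2.16 and 1.34 CPM in Id2-null and no count in any sorted library. The genotypes did not overlap. Arfgef3 (chromosome 10, 18588011 to 18743758) fell by 2.47 on the log2 scale (SE 0.37, adjusted p = 0.00953), and without Id2-null replicate 2 the adjusted p was 0.0528.

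**Figure D3:**
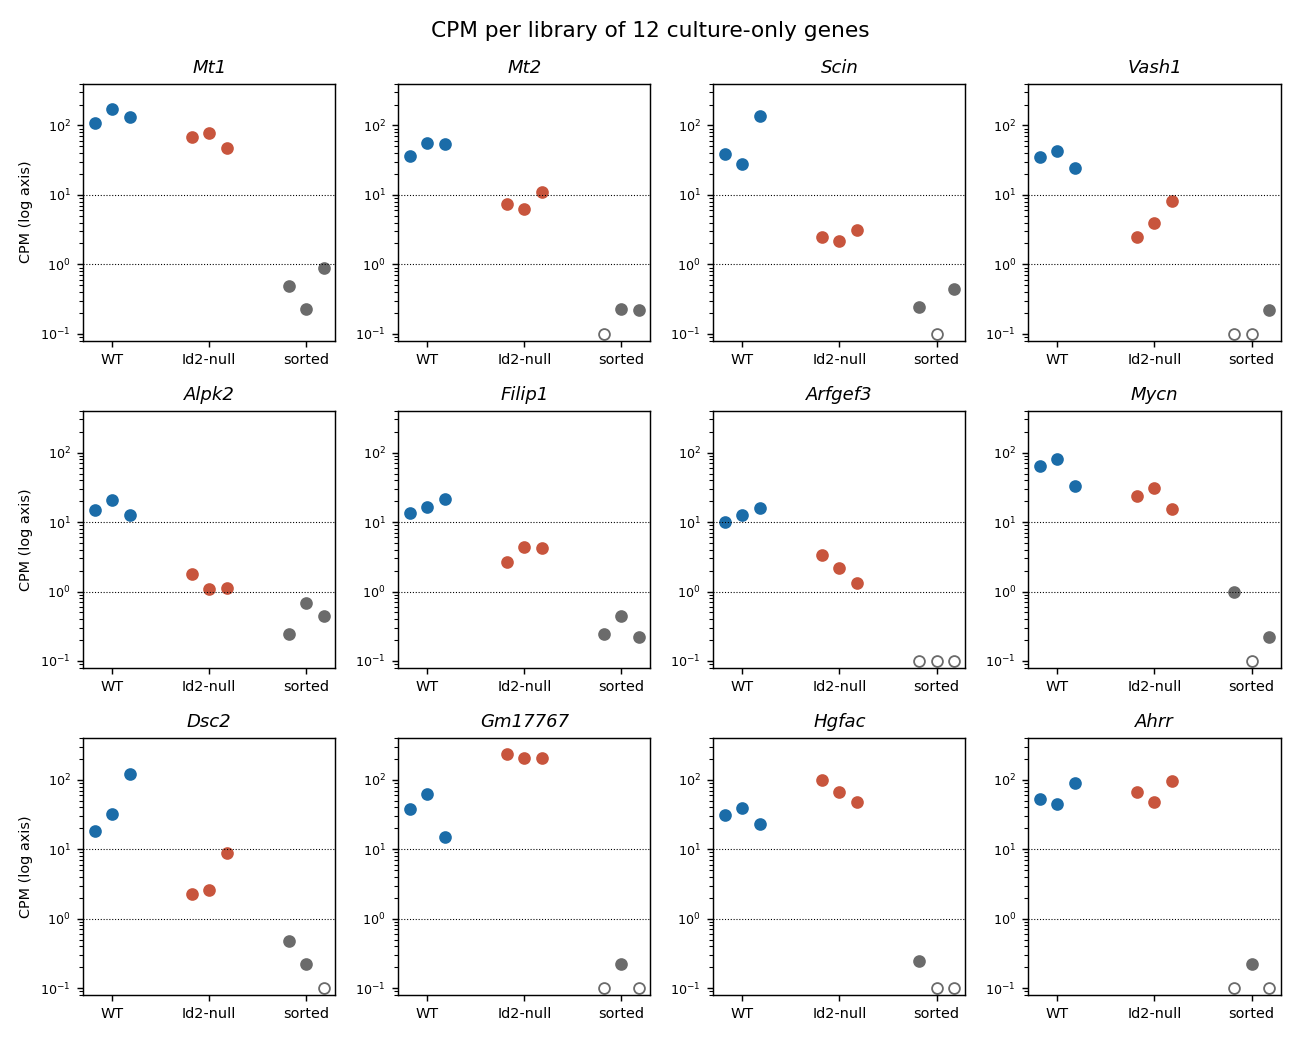
CPM of 12 culture-only genes in each library, on a log axis, for WT cultures (blue), Id2-null cultures (red) and the sorted Immature, M1 and M2 libraries (grey), left to right by replicate number or in that order; open points are libraries at 0, drawn at 0.1 CPM, and dotted lines mark 1 and 10 CPM. Red points lie between blue and grey for Mt2, Scin, Vash1, Alpk2, Filip1 and Arfgef3, and also for the uncalled Mt1, Mycn and Dsc2. They lie above blue for Gm17767 and Hgfac, and among blue for Ahrr.

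Adhesion and polarity genes differed among themselves. Dsc2 encodes desmocollin-2, a cadherin of desmosomes. It had 18.5, 31.7 and 121 CPM in WT, 2.23, 2.59 and 8.92 CPM in Id2-null and at most 0.484 CPM in sorted cells. No Id2-null library reached a WT library, but replicate 3 was the highest in both genotypes, and the difference passed only with the replicate block (log2 fold change -3.63, SE 0.98, adjusted p = 0.168, and 4.48e-05 with the block). Of the desmosome partners examined, Jup (plakoglobin) fell from 27.8 ± 2.72 to 5.69 ± 2.08 CPM (adjusted p = 0.00299) and Dsp (desmoplakin) rose from 4.98 ± 1.27 to 20.01 ± 5.55 CPM (adjusted p = 0.00798). Both were measured in sorted cells too, Jup at 12.6 to 37.1 CPM and Dsp at 0.889 to 4.71 CPM. Vangl1, a membrane protein of planar cell polarity, had 14.8, 12.7 and 14.9 CPM in WT and 12.3, 6.70 and 9.15 CPM in Id2-null (adjusted p = 0.340). Ceacam16, known as a protein of the inner ear's tectorial membrane, had 12.7, 20.3 and 12.4 CPM in WT, 17.7, 16.4 and 13.2 CPM in Id2-null and no count in sorted cells, with overlapping genotypes (adjusted p = 0.956). Of the 50-base windows of its GENCODE transcripts, 17.3% also occur in another gene.

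Among regulators of transcription, Mycn encodes N-Myc, a growth-promoting factor of the Myc family. It had 65.1, 81.4 and 33.3 CPM in WT, 23.5, 30.7 and 15.6 CPM in Id2-null and 0.969, 0 and 0.222 CPM in sorted cells. Replicate 3 was the lowest in both genotypes, and no Id2-null library reached a WT one. The difference passed only with the replicate block (log2 fold change -1.36, SE 0.41, adjusted p = 0.176, and 0.000891 with the block). Myc itself was present throughout, at 159 ± 17.1 CPM in WT, 195 ± 48.9 CPM in Id2-null and 27.3 to 89.1 CPM in sorted cells, and Mycl had at most 2 counts. Ahrr encodes the repressor of the aryl hydrocarbon receptor (AHR) and is itself a target of that receptor. Ahrr had 53.0, 44.6 and 89.8 CPM in WT, 66.4, 48.2 and 95.9 CPM in Id2-null, and 1 count in the 3 sorted libraries together. The genotypes overlapped fully, with the same order of replicates (log2 fold change 0.17, SE 0.31, adjusted p = 0.873, and leaving out 1 library could turn its sign). Ahr had 36.8 ± 5.29 CPM in WT, 42.1 ± 5.51 CPM in Id2-null and 6.89 to 16.7 CPM in sorted cells. The receptor's target Tiparp had 50.8 ± 13.6 CPM in WT, 126 ± 65.3 CPM in Id2-null (adjusted p = 0.204) and 9.21 to 18 CPM in sorted cells, whereas Cyp1a1 and Cyp1b1 had at most 1 count in a library.

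Cdkn2a and Cdkn2b lie 11.7 kb apart on chromosome 4 and encode inhibitors of the kinases CDK4 and CDK6, with ARF, an activator of p53, as a further product of Cdkn2a. Cdkn2a had 17.0, 24.1 and 36.4 CPM in WT, 20.8, 29.2 and 44.2 CPM in Id2-null and 1 count in the sorted libraries together. Cdkn2b had 10.7, 15.4 and 18.01 CPM in WT, 13.0, 16.6 and 20.8 CPM in Id2-null and none in sorted cells. Both genes had the same order of replicates in each genotype and overlapped between genotypes (adjusted p = 0.784 and 0.805). The other INK4 genes were expressed before culture as well, Cdkn2c at 24.9 to 34.9 CPM and Cdkn2d at 101 to 159 CPM in sorted cells. Cdk4 was at 322 ± 30.6 CPM in WT cultures and 131 to 215 CPM in sorted cells, and Cdk6 at 44.1 ± 5.40 and 4.22 to 13.3 CPM. Ankle1, a nuclease with a LEM domain, had 17.6, 22.4 and 37.7 CPM in WT and 13.4, 18.6 and 16.3 CPM in Id2-null (adjusted p = 0.311). Dyrk3, a protein kinase that dissolves stress granules and other condensates, had 12.02, 13.1 and 10.6 CPM in WT and 8.26, 9.72 and 9.82 CPM in Id2-null (adjusted p = 0.521), so that it missed 10 CPM in every Id2-null library by a small margin.

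Of the secreted factors and receptors, Pdgfa, the platelet-derived growth factor A chain, was expressed in both genotypes. It had 50.9, 35.9 and 36.0 CPM in WT and 37.8, 32.6 and 34.1 CPM in Id2-null, with overlap (adjusted p = 0.640). In GENCODE, 21.3% of the 50-base windows of Pdgfa transcripts also occur in another gene, so its reads could be shared. Its receptor genes Pdgfra and Pdgfrb had at most 1 count in a culture, and Pdgfb was at 30.9 ± 7.495 CPM in WT, 52.0 ± 15.2 CPM in Id2-null and 124 to 186 CPM in the sorted cells. Hgfac encodes a serine protease that activates hepatocyte growth factor. It had 31.4, 38.9 and 23.4 CPM in WT, 100, 67.6 and 48.0 CPM in Id2-null and 1 count in the sorted libraries together. All Id2-null libraries were above the WT range, and the difference passed only with the replicate block (log2 fold change 1.21, SE 0.33, adjusted p = 0.128, and 0.00975 with the block). Hgf and Met, for the growth factor and its receptor, had no count in any culture. Unc5b, a netrin receptor, had 46.0, 29.0 and 27.7 CPM in WT and 67.7, 40.6 and 21.0 CPM in Id2-null. Its genotypes overlapped (adjusted p = 0.810), and the direction of the difference turned without Id2-null replicate 1. The netrin genes Ntn1 and Ntn4 had at most 2 counts in any library.

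Enzymes and transporters formed the next group. Asns had 93.8, 94.9 and 33.1 CPM in WT, 35.5, 55.3 and 62.2 CPM in Id2-null and 0.727, 0.224 and 0.222 CPM in sorted cells. Its genotypes overlapped through WT replicate 3 (log2 fold change -0.55, SE 0.45, adjusted p = 0.668), and without replicate 3 of both genotypes it was lower (log2 fold change -1.04, adjusted p = 0.000161). Other genes of the response to amino acid shortage differed in the sorted cells, where Atf4 was at 99.3 to 122 CPM, Psat1 at 42.9 to 85.3 CPM and Ddit3 at 17.2 to 29.6 CPM. Chac1, which encodes an enzyme that breaks down glutathione, had 20, 39 and 2 counts in WT, 3, 6 and 0 in Id2-null and 0, 0 and 1 in the sorted cells. Trib3, an ATF4-induced pseudokinase gene, had 75, 116 and 3 counts in WT, 190, 163 and 24 in Id2-null and 2, 0 and 3 in the sorted cells, with replicate 3 the lowest in both genotypes. Mgat3 encodes the transferase that adds the bisecting N-acetylglucosamine to N-glycans. It had 14.4, 28.3 and 27.1 CPM in WT, 85.3, 45.6 and 51.3 CPM in Id2-null and no count in sorted cells. No Mgat3 value of one genotype reached the other, and the adjusted p was 0.0908 (log2 fold change 1.39, SE 0.34; 0.000987 in DESeq2). The related transferase genes Mgat1, Mgat2 and Mgat5 were expressed in the sorted cells, at 154 to 244, 144 to 150 and 25.3 to 36.8 CPM. Slc9a5, a sodium-proton exchanger, had 25.8, 27.7 and 29.8 CPM in WT and 19.9, 20.1 and 19.6 CPM in Id2-null, a small difference without overlap (log2 fold change -0.48, SE 0.15, adjusted p = 0.153).

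Of the remaining members, AA467197 is the mouse gene for a small mitochondrial protein, and its transcript also carries the microRNA miR-147. It had 34.8, 30.2 and 13.9 CPM in WT, 62.8, 41.5 and 40.8 CPM in Id2-null and at most 0.667 CPM in the sorted cells. The genotypes did not overlap, and the difference passed only with the replicate block (log2 fold change 0.88, SE 0.37, adjusted p = 0.341, and 0.0383 with the block). Gm17767, a long noncoding RNA on chromosome 1 (51509505 to 51596718), had the highest level of any member in the Id2-null cultures. It had 37.6, 62.6 and 14.9 CPM in WT, 233, 204 and 205 CPM in Id2-null and 1 count in the sorted libraries together. Each Id2-null library was over 3 times the highest WT library. The adjusted p was 0.0810 (log2 fold change 2.47, SE 0.51), 0.132 with the block, 0.0192 in limma voom and 1.08e-08 in DESeq2. Nabp1, the nearest expressed gene at 31.0 kb, was at 226 to 276 CPM in WT, 264 to 408 CPM in Id2-null (adjusted p = 0.324) and 138 to 157 CPM in sorted cells. Ccdc18, a coiled-coil protein gene, had 14.6, 15.9 and 15.9 CPM in WT and 12.3, 13.4 and 9.15 CPM in Id2-null (adjusted p = 0.475).

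For 3 members the name culture-only did not hold in every cultured library. Entpd4b, a copy of a gene for an intracellular nucleotidase, had 169, 174 and 189 counts in WT, 149, 146 and 0 in Id2-null and 0 in all sorted libraries. Gm2274 had 166, 188 and 278 counts in WT, 215, 194 and 0 in Id2-null and 0 in all sorted libraries. Tmem254b, a copy of a membrane protein gene, had 72, 66 and 68 counts in WT, 93, 126 and 0 in Id2-null and 0 in all sorted libraries. Id2-null replicate 3 was therefore like the sorted libraries for these genes and unlike the other 5 cultures. Over the whole genome 5 genes were at 0 in Id2-null replicate 3 and all sorted libraries with at least 10 counts in each of the other 5 cultures, the further ones being Gm16381 and Gapdh-ps15, and no gene had such a pattern with any other culture in the place of that library. All 5 have near-identical copies: of their 50-base transcript windows in GENCODE, 100% in Entpd4b, Tmem254b and Gm16381, 98.8% in Gm2274 and 94.8% in Gapdh-ps15 also occurred in another gene. Gapdh-ps15 is annotated on chromosome Y and had 104, 72 and 36 counts in WT and 115, 112 and 0 in Id2-null. The Y-linked gene Ddx3y had 1 to 3 counts in the Id2-null cultures. The copy Tmem254a had 0 or 1 counts in every culture and 24, 15 and 21 in the sorted cells, and Tmem254c had 59 to 149 counts in the cultures and 135 to 163 in the sorted cells. Entpd4, which shares sequence with Entpd4b, differed. It had 3, 7 and 5 counts in WT, 6, 3 and 0 in Id2-null and 4, 7 and 3 in the sorted cells. The sources used here do not say how reads with several matches were counted or whether all libraries were counted alike, and the part of counting in this pattern was not tested.

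The histone genes H2ac23 and H2ac24, 22.1 kb apart on chromosome 13, encode replication-dependent H2A histones. H2ac23 had 94.5, 145 and 60.0 CPM in WT, 57.9, 95.7 and 5.80 CPM in Id2-null and 0, 0.224 and 0 CPM in sorted cells. H2ac24 had 77.3, 79.3 and 64.0 CPM in WT, 54.7, 88.2 and 7.81 CPM in Id2-null and at most 0.224 CPM in sorted cells. In both, Id2-null replicate 3 lay apart and the other 2 Id2-null libraries overlapped WT (adjusted p = 0.764 and 0.842). They share 93.5% and 93.1% of their 50-base windows with other genes. Summed over the 17 H2ac genes, the WT libraries had 185, 246 and 135 CPM, the Id2-null libraries 124, 200 and 18.7 CPM and the sorted libraries 6.06, 2.46 and 4.67 CPM. Without Entpd4b, Gm2274, Tmem254b, H2ac23 and H2ac24, 25 genes remained, of which 15 were at 10 CPM or more in all 3 Id2-null cultures and 16 in replicate 3. The same 6 genes fell and none rose, since none of those left out was called. The 25 genes summed to 828, 980 and 996 CPM in WT and 921, 797 and 801 CPM in Id2-null.

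**Figure D4:**
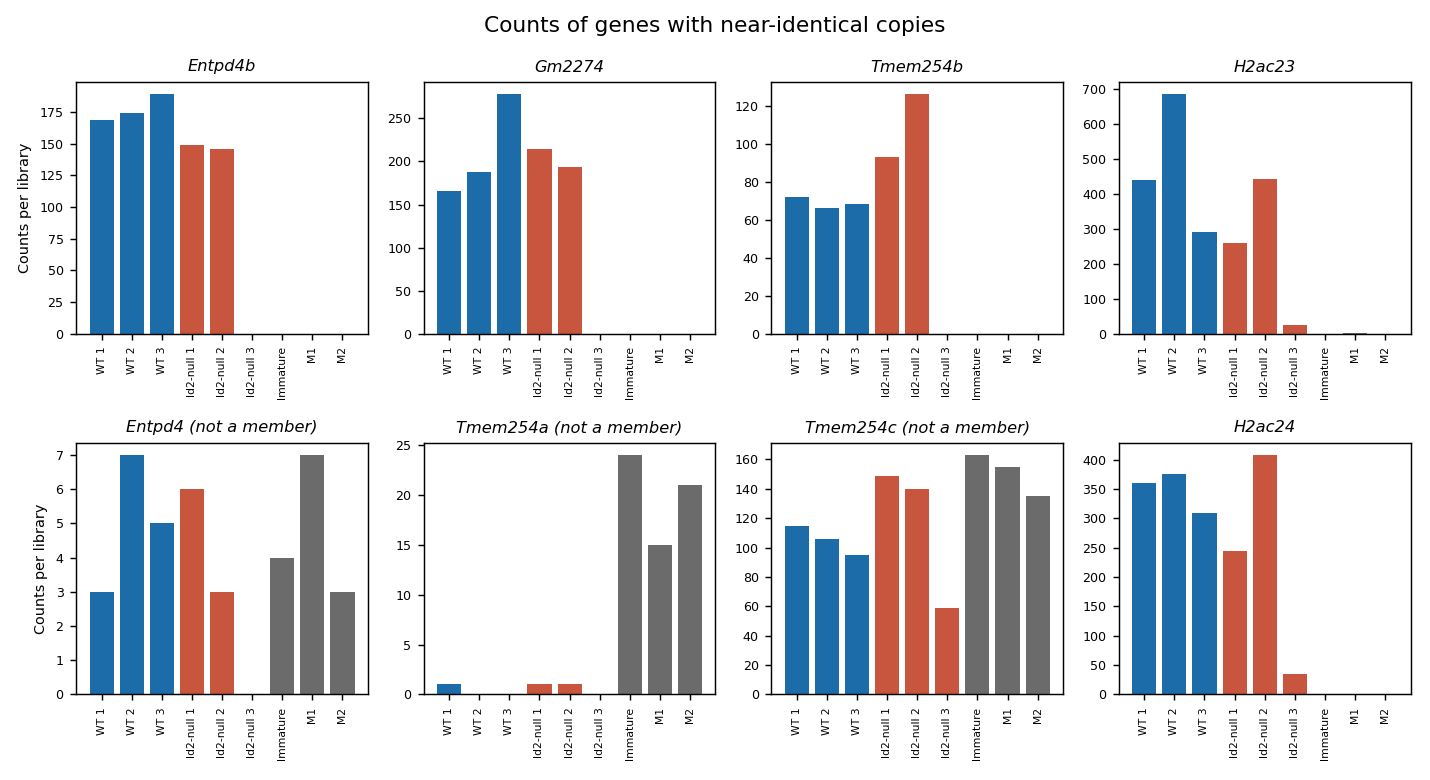
Counts per library of 5 culture-only genes and 3 related genes that share sequence with near-identical copies (blue WT, red Id2-null, grey sorted; each panel has its own axis from 0). Entpd4b, Gm2274 and Tmem254b have no bar in Id2-null replicate 3 or in the sorted libraries, H2ac23 and H2ac24 have a short one in that replicate, and Tmem254a is counted almost only in the sorted libraries.

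The WT libraries, whose values chose the members, also differed from each other in these genes. The median ratio of the highest to the lowest WT library was 1.66 for the members and 1.24 for autosomal genes at the same floor, with the widest spread for Dsc2 (6.58), Scin (4.97) and Gm17767 (4.20) and the narrowest for Entpd4b (1.08) and Ccdc18 (1.09). WT replicate 3 was the highest WT library for 13 members and the lowest for 12. Replicate 3 was highest in both genotypes for 5 genes (Scin, Ahrr, Dsc2, Cdkn2a and Cdkn2b) and lowest in both for 7 (H2ac23, H2ac24, Mycn, Unc5b, Hgfac, AA467197 and Ceacam16). How often replicate 3 was highest or lowest among the other genes at the floor was not counted, so these counts are not particular to the members.

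None of the culture-only genes was in the lists of known STAT5 targets and of activation genes examined beside them. Of all genes tested, 1.91% were called higher and 1.52% lower in Id2-null. Of 28 STAT5 targets tested, 3 rose (Socs2, Lta and Lif) and 2 fell (Gzmb and the deleted gene Id2 itself). Under the replicate block 6 were higher and 6 lower, where 835 of the 11022 genes were called. The list's median log2 fold change was 0.12. Of 29 activation genes tested, none rose, 3 fell (Havcr2, Lag3 and Entpd1), and the median was -0.28. With the block 3 rose (Tfrc, Batf and Ly6a) and 1 fell, Entpd1. In each sorted library, 26 to 27 genes of the STAT5 list and 27 to 29 of the activation list were at 1 CPM or more, a level that the rule bars for the members.

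RefSeq promoters were matched for 24 of the 30 genes, with 30 start sites. The STAT5 motif TTCNNNGAA was found in 1 member window (Hgfac) and in 8.3% of all promoters, the E-box CAGGTG in 5 windows (Dyrk3, AA467197, Hgfac, Mt2 and Arfgef3) against 20.2%, the AP-1 motif TGANTCA in 3 (AA467197, Mt2 and Arfgef3) against 7.81%, and the RUNX motif TGTGGT in 1 (Filip1) against 16.8%, all on both strands. Either metal-response spelling was in 15 member windows and 25.7% of all promoters. The median ratio of observed to expected CpG was 0.77 for the members and 0.81 for 6597 genes at the same WT floor. Single ratios ran from 0.0795 for Hgfac and 0.136 for Gm17767 to 1.04 for Cdkn2a and 1.1 for Ccdc18.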

How the data were processed

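Members and gene lists were chosen with earlier results of these data known. Per the file headers, each deposited file gave a raw count for every Entrez gene, beside the gene's length in bases. Subread, featureCounts, limma and the build GRCm38 (mm10) are named per the submitters' processing notes; the sources used here do not give their versions, the annotation, the strand setting or how reads with several matches were handled. Symbols were taken from RefSeq (GRCm38.p6) for 25275 of 27179 genes, and transcripts from GENCODE. CPM are counts over library totals.

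Id2-null and WT cultures, 3 libraries each, were tested with edgeR 4.0.16 in R 4.3.3 (filterByExpr, minimum count 10, TMM scaling, robust dispersions, quasi-likelihood test, genotype alone) and Benjamini-Hochberg adjustment over 11022 genes. The SE is the log2 fold change divided by the root of F. The fit was tested on simulated data that had the same dispersion for every gene and no effect of replicate number. That test therefore does not cover differences between replicates such as those seen here. DESeq2 1.42.0, limma 3.58.1 (voom), a replicate block and other cut-offs were alternatives. Deviations from the genotype means correlated at 0.35, 0.24 and 0.42 between libraries of the same number, and at -0.40 to 0.19 between others. The sources used here do not say that the numbers mark pairs. The main fit therefore left them out, and they entered only as the block in an alternative. All members were named, since there were fewer than 40. Beside them stood 11 marker lists, a STAT5 list and an activation list. Some list and partner genes are not reported here. Partner genes, the metal and amino acid motifs and near-identical copies (shared 50-base transcript windows) were chosen after the members were known. Reads carry no molecular identifiers, so floors cover counting error alone. Total counts of 4128414 to 4831831 per library set the precision.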

Additional observations from a re-analysis of the deposited data

How the results depend on the processing

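The 6 lower calls became 10 without replicate 3 of both genotypes, 10 at a WT floor of 5 CPM and 3 at a floor of 20 CPM, and ran from 3 to 7 when each library was left out in turn (3 without Id2-null replicate 2). The 0 higher calls became 2 with the replicate block, 3 in DESeq2, 1 in limma voom and 4 without replicate 3 of both genotypes, and 0 to 2 on leaving out 1 library. Over all genes, 377 calls became 835 with the block, 580 in DESeq2, 1065 without replicate 3 of both genotypes and 121 (without WT replicate 1) to 662 (without Id2-null replicate 3). The 30 members became 64 and 15 at WT floors of 5 and 20 CPM, 60 at a sorted ceiling of 2 CPM and 31 to 46 without 1 WT library, most without WT replicate 3. Of the 30 members, 15 were at 10 CPM or more in all Id2-null cultures. This count was 21 of 64 members (32.8%) at the WT floor of 5 CPM and 8 of 15 (53.3%) at 20 CPM. At sorted ceilings of 2 and 0.5 CPM it was 33 of 60 (55.0%) and 9 of 21 (42.9%). Without 1 Id2-null library it was 15 to 21. With TMM-scaled CPM in the rule, 24 members were left. Of these, 11 (45.8%) were at 10 CPM or more in all Id2-null cultures and 5 (20.8%) were called lower. Leaving out 1 library gave a call for Mt1, Hgfac and Tmem254b (Id2-null replicate 3), Mycn (WT replicate 3) and Gm17767 (WT replicate 2 or 3). Uncalled genes changed sign on leaving out 1 library: Ahrr ran from -0.087 to 0.49 (log2), Gm2274 from -1.04 to 0.057, Unc5b from -0.15 to 0.69, Cdkn2a from -0.013 to 0.58, Ceacam16 from -0.087 to 0.35 and Tmem254b from -0.45 to 0.76. Gm2274 was at 0.26 without replicate 3 of both, and Tmem254b at -0.25 with the block and -1.93 in voom. The block changed no member's call other than the 5 given above. Leaving out the 5 near-identical copies was chosen after seeing the data and changed no count of calls. The cause of these changes was not tested. At 4128414 to 4831831 counts, a sorted count of 0 allows a level of up to 3 counts.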

Other observations

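Values outside the comparisons above concern genes removed by the rule. The 3 granzyme genes that met the cut-offs had higher levels than any member in WT and were low in Id2-null. Gzme had 339, 598 and 382 CPM in WT and 4.02, 5.40 and 13.8 CPM in Id2-null, Gzmd had 642, 1239 and 1016 CPM in WT and 3.13, 11.02 and 16.9 CPM in Id2-null, and Gzmg 208, 440 and 208 CPM in WT and 0.893, 1.08 and 1.34 CPM in Id2-null. Tnfrsf11b, which encodes the decoy receptor osteoprotegerin, had 15.2, 16.3 and 30.4 CPM in WT and 1.12, 1.73 and 12.9 CPM in Id2-null. Fgd5, an exchange factor for CDC42 just outside the WT floor, had 8.37, 12.5 and 13.2 CPM in WT and 0.223, 0.864 and 0.892 CPM in Id2-null, close to its 0.242 to 0.667 CPM in the sorted cells. These values were noticed after the data were seen and are given without a test.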
